A study of Homo sapiens with 9 samples.

Results

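Aminoacyl-tRNA synthetases are the enzymes that join each amino acid to its transfer RNA. The 35 synthetase genes described here were chosen by gene symbol from the 20379 genes of the deposited table: 19 encode cytosolic enzymes and 16 encode mitochondrial ones. The rule used symbols and no measured value, but the list was chosen with earlier results of these data known. All 35 passed the filter on low counts. Poly(A) RNA had been sequenced from HCCLM3, an established human liver cancer cell line, in 9 libraries. Of these, 3 came from cells given a non-targeting siRNA, 3 from cells given siRNA against UXS1 and 3 from cells given siRNA against MRPL42. UXS1 encodes the enzyme that makes UDP-xylose for glycosaminoglycan synthesis, and MRPL42 a component of the large subunit of the mitochondrial ribosome. The labels give no siRNA sequence, dose or time after transfection, and the letters a, b and c below are those of the table's columns. No label ties these letters to the repeat numbers of the samples. The columns of the group called UXS1 siRNA here were spelled USX1. That spelling was read as UXS1 with letters exchanged, since no other group was left by name.

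In human cells cytosolic and mitochondrial translation use separate sets of synthetases, mostly from separate genes: symbols ending in 1 name the cytosolic enzymes and symbols ending in 2 the mitochondrial ones. GARS1 and KARS1 are exceptions that supply glycyl- and lysyl-tRNA synthetase to both compartments, EPRS1 carries the glutamyl and prolyl activities in a single chain, and FARSA and FARSB are the subunits of cytosolic phenylalanyl-tRNA synthetase. When amino acids run short or the endoplasmic reticulum is under stress, phosphorylation of eIF2 alpha raises translation of the transcription factor ATF4. ATF4 is known to bind C/EBP-ATF response elements at genes of amino acid synthesis and transport and at many cytosolic synthetase genes. From that knowledge 12 cytosolic genes were grouped as ATF4 targets: AARS1, CARS1, EPRS1, GARS1, IARS1, LARS1, MARS1, NARS1, SARS1, TARS1, WARS1 and YARS1. The other 7 cytosolic genes were FARSA, FARSB, HARS1, KARS1, QARS1, RARS1 and VARS1. The grouping was made with earlier results of these data known.

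The promoters are shown because the cytosolic groups differed in expression, as described further on, and because the response element is the feature through which ATF4 is known to act. RefSeq promoter windows on GRCh38.p14, from 250 bases before to 50 bases after each start site, were found for 30 of the 35 genes. Both strands were searched for TGATGNAA, the C/EBP-ATF response element with 1 base left free. It occurred in 7 of the 10 ATF4-target genes with a window (70.0%), in 0 of 6 other cytosolic genes and in 1 of 14 mitochondrial genes, YARS2. Of all 27167 genes with a window, 4.47% held it. A gene was counted if any of its windows did. The stricter form TGATGCAA occurred in 6 of the 10, in 0 of 6 and in 0 of 14, against 1.09% of all genes. The ATF4-target group was drawn from knowledge of ATF4 binding at such elements, so a high share in it was likely beforehand. These shares are therefore no test of a role of ATF4 in these data. A match is a description of the sequence and no evidence of binding. The 30 bases around each match are given on the strand of the gene, with the match in capitals; TTGCATCA is TGATGCAA read on the opposite strand.
AARS1, chr16:70289675-70289704, minus strand: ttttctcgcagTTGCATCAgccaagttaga
CARS1, chr11:3057407-3057436, minus strand: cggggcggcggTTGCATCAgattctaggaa
GARS1, chr7:30594834-30594863, plus strand: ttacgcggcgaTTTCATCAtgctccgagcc
IARS1, chr9:92293692-92293721, minus strand: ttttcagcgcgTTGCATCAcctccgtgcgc
MARS1, chr12:57488053-57488082, plus strand: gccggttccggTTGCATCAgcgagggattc
NARS1, chr18:57621804-57621833, minus strand: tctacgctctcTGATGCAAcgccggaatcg
TARS1, chr5:33440956-33440985, plus strand: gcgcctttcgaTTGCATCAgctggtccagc
YARS2, chr12:32756076-32756105, minus strand: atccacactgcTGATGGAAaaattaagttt
In CARS1, GARS1, IARS1 and MARS1 the match began between 2 and 33 bases before the start site, and in AARS1 it began 187 bases before it. In NARS1 and TARS1 it began just after the start site. CARS1, GARS1 and TARS1 each also had a window at another start site without the motif. EPRS1, SARS1 and WARS1 had no match in any window, and the windows of LARS1 and YARS1 were not in the table.

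Library totals lay between 15265959 and 22400560 estimated counts. Control library c stood apart: the correlation of its log2 expression with the other libraries was 0.956 to 0.967, against at least 0.985 among the other 8. For that reason the main comparisons of the synthetases with control siRNA are given with and without it. Values of some other genes are given with all 9 libraries only. UXS1 stood at 144, 151 and 179.7 CPM (counts scaled to a common library total) in the controls. It stood at 145, 138 and 141 CPM in the libraries whose label, spelled USX1, was read as UXS1 siRNA. These groups overlapped, and the difference did not pass the test (log2 fold change -0.17, adjusted p = 0.348). MRPL42 stood at 100.4, 118 and 147 CPM in the controls and at 104, 93.0 and 81.8 CPM in the libraries labelled MRPL42 siRNA (log2 fold change -0.39, adjusted p = 0.185). Control library c held the highest control value of both targets. Control libraries a and b alone averaged 148 CPM for UXS1, against 141 CPM with UXS1 siRNA. For MRPL42 they averaged 109 CPM, against 93.1 CPM with MRPL42 siRNA. Against control siRNA, neither target was therefore reduced beyond the spread between libraries. With UXS1 siRNA, MRPL42 stood at 131, 115 and 126 CPM, above every MRPL42 siRNA library. With MRPL42 siRNA, UXS1 stood at 140, 156 and 147 CPM and overlapped the UXS1 siRNA libraries. No gene passed edgeR's test between the siRNA groups with all 9 libraries. The group names below are those of the labels, with USX1 read as UXS1. The values of UXS1 give no support to that reading, which rests on the name alone. Of the 10 liver markers 7 passed the filter. HNF4A stood at 111 CPM in control library c and at 52.8 to 57.8 CPM in the other 8 libraries. APOB stood at 55.3 to 83.8, TF at 12.5 to 42.2 and FGB at 1.59 to 39.7 CPM, each lowest in control library c. ALB was at 3.61 CPM in control library c and at 11.96 to 14.4 CPM in the other 8 libraries, and GPC3 was at 0 in every library. The labels do not say whether the libraries of a group were separate cultures. All p-values therefore measure only how these libraries vary, and that variation may be technical.

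The 12 ATF4-target synthetase mRNAs shared 1 profile over the 9 libraries. They were most abundant in control libraries a and b and lower in control library c and in all 6 libraries of both siRNA groups. GARS1, for glycine, was at 450.2, 451 and 318 CPM in control libraries a, b and c, at 272, 272 and 299.7 CPM with UXS1 siRNA, and at 315, 296 and 291 CPM with MRPL42 siRNA. Every siRNA library lay below every control for GARS1, but control library c was far closer to the siRNA libraries than to the other controls. MARS1, for methionine, was at 378, 363 and 211 CPM in the controls, at 232, 237 and 244 CPM with UXS1 siRNA and at 268, 247 and 251 CPM with MRPL42 siRNA. For MARS1 control library c was the lowest of all 9. AARS1, for alanine, was at 678, 670.3 and 373 CPM in the controls, at 505, 526 and 539 CPM with UXS1 siRNA and at 544, 524 and 537 CPM with MRPL42 siRNA. Here the control library c value lay well under both siRNA groups, so that the control mean and the siRNA means nearly coincided (574 ± 174 CPM in controls, 523 ± 17.1 with UXS1 siRNA and 535 ± 10.1 with MRPL42 siRNA, SD, n = 3 each).

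The 8 other ATF4-target genes called in either contrast without control library c likewise had control libraries a and b as their highest pair. EPRS1 was at 335, 359.7 and 261 CPM in the controls, at 227, 229.9 and 257 CPM with UXS1 siRNA and at 229, 251 and 232 CPM with MRPL42 siRNA. TARS1 was at 260.2, 261 and 186 CPM in the controls, at 170.0, 171 and 189.7 CPM with UXS1 siRNA and at 184, 186 and 175 CPM with MRPL42 siRNA. IARS1 was at 517, 544 and 408 CPM in the controls, at 380.4, 375 and 402 CPM with UXS1 siRNA and at 383, 406 and 376 CPM with MRPL42 siRNA. In these 3 genes control libraries a and b lay well above the rest, and control library c lay just above the siRNA libraries or among them. YARS1 was at 221, 213 and 142 CPM in the controls, at 147, 151 and 161 CPM with UXS1 siRNA and at 165, 157 and 153 CPM with MRPL42 siRNA. CARS1 was at 147, 143 and 101 CPM in the controls, at 96.9, 106 and 106 CPM with UXS1 siRNA and at 119, 99.6 and 106 CPM with MRPL42 siRNA. SARS1 was at 114, 113 and 77.2 CPM in the controls, at 84.9, 86.9 and 87.2 CPM with UXS1 siRNA and at 98.1, 81.3 and 89.7 CPM with MRPL42 siRNA. Control library c was the lowest of the 9 for YARS1 and SARS1 and lay among the siRNA libraries for CARS1. WARS1 was at 101, 100.2 and 79.1 CPM in the controls, at 80.4, 74.0 and 77.2 CPM with UXS1 siRNA and at 79.9, 82.6 and 79.2 CPM with MRPL42 siRNA. NARS1 was at 332, 358 and 306 CPM in the controls, at 299.8, 263 and 292 CPM with UXS1 siRNA and at 279, 277 and 263 CPM with MRPL42 siRNA. For WARS1 control library c lay among the siRNA libraries, and for NARS1 it lay above all of them. LARS1 stood at 169, 178 and 155 CPM in the controls and between 139 and 152 CPM in the siRNA libraries, all of which lay below every control.

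Control libraries a and b were the highest pair of the 9 for all 12 of these genes. The same held for 0 of the 7 other cytosolic genes and for 1 of the 16 mitochondrial genes, PARS2, against 5.63% of all genes tested. Because the groups were formed with earlier results of these data known, these counts describe them and test nothing. Control library c lay below both other controls for 12 of 12, 4 of 7 and 8 of 16 genes of these groups, against 43.6% of all genes tested. The median log2 ratio of control library c to the mean of a and b was -0.49 over the 12 genes, -0.01 over the other 7 and -0.10 over the mitochondrial 16. Taking each gene relative to its own mean over the 9 libraries, the median of the 12 genes was 0.347 and 0.355 (log2 CPM) in control libraries a and b and -0.072 in c. In the 6 siRNA libraries it lay between -0.16 and -0.0479. The other 7 cytosolic genes stayed between -0.0554 and 0.0791 in all 9 libraries, and the mitochondrial genes between -0.0798 and 0.0498.

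**Figure D1:**
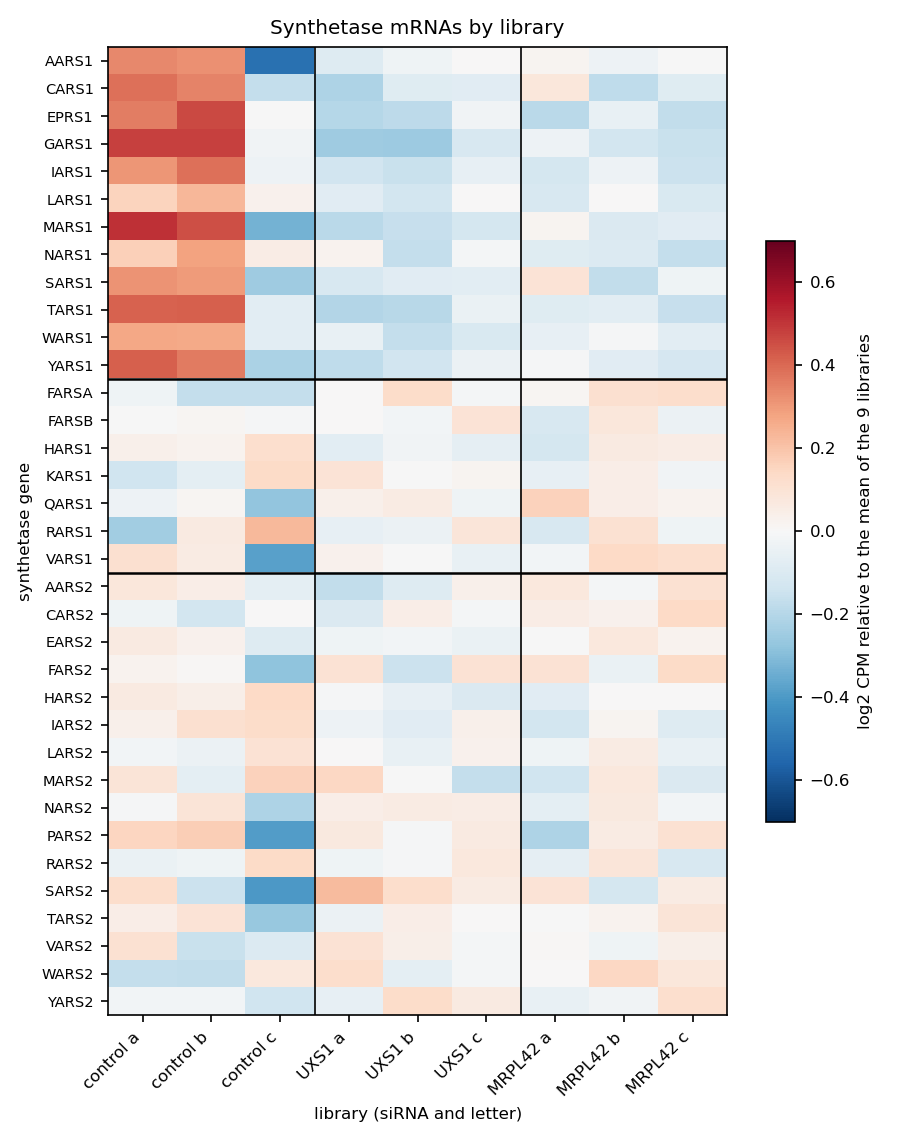
Colour shows log2 CPM of each synthetase gene relative to its mean over the 9 libraries (columns, by siRNA and letter); rows are the 12 ATF4-target cytosolic genes, the 7 other cytosolic genes and the 16 mitochondrial genes, separated by lines. The red block at the upper left covers the 12 genes in control libraries a and b, and AARS1 in control library c is the deepest blue.

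With all 9 libraries, none of the 35 synthetases differed between UXS1 siRNA and control siRNA at an adjusted p below 0.05 in edgeR's quasi-likelihood test, where 2 genes of 12657 did (0.0158%). The median log2 fold change was -0.33 over the 12 ATF4-target genes, all of which lay below 0. It was 0.04 over the other 7 cytosolic genes, 0.03 over the 16 mitochondrial genes and -0.00 over all genes tested. At an unadjusted p below 0.05, 10 synthetases were lower, all of them ATF4 targets, and 1 was higher, FARSA. Of all genes tested, 7.37% were lower and 10.4% higher at that level. In this fit the smallest adjusted p of any synthetase was 0.171, for GARS1 (log2 fold change -0.53 ± 0.12 SE). Complete separation, every UXS1 siRNA library below every control, was seen for EPRS1, GARS1, HARS1, IARS1, LARS1, NARS1 and HARS2, and separation upward for FARSA. Among all genes 10.9% separated downward and 15.3% upward. DESeq2 on the same libraries called 4 synthetases lower, EPRS1, GARS1, IARS1 and TARS1, with 3.63% of all genes called.

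Without control library c, 10 of the 12 ATF4-target synthetases fell with UXS1 siRNA by edgeR's quasi-likelihood test, against 1.58% of all 12747 genes tested (1.07% lower). Their median log2 fold change was -0.49, and that of all genes was -0.01. GARS1 fell by 0.69 ± 0.06 on the log2 scale (SE, adjusted p = 0.00108) and MARS1 by 0.65 ± 0.06 (adjusted p = 0.00108). TARS1, for threonine, fell by 0.57 (adjusted p = 0.0024) and EPRS1, for glutamate and proline, by 0.56 (adjusted p = 0.00483). YARS1 for tyrosine, CARS1 for cysteine and IARS1 for isoleucine fell by 0.52, 0.51 and 0.47. SARS1 for serine, WARS1 for tryptophan and AARS1 for alanine fell by 0.41, 0.39 and 0.38, with adjusted p between 0.00727 and 0.0215. The remaining members, NARS1 for asparagine (-0.29, adjusted p = 0.0707) and LARS1 for leucine (-0.27, adjusted p = 0.0677), did not pass. For all 12 genes every UXS1 siRNA library lay below both remaining controls, as it did for 18.5% of all genes. Beyond these 12, no synthetase passed in this fit, and only KARS1 had an unadjusted p below 0.05 (log2 fold change 0.13). At that level 9.03% of all genes were lower and 10.1% higher. DESeq2 without control library c called all 12 and no other synthetase, with 3.09% of all genes called. A fit in limma that weights each library (0.102 for control library c) called 12 synthetases, with 10.4% of all genes called.

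The comparison with MRPL42 siRNA uses the same control libraries, so its result is not independent of the one for UXS1 siRNA. With all 9 libraries edgeR called 0 of the 35 synthetases and 0% of all genes. The median log2 fold change was -0.28 over the 12 ATF4-target genes (12 below 0), 0.01 over the other 7 cytosolic genes and 0.04 over the 16 mitochondrial genes, beside -0.01 over all genes. At an unadjusted p below 0.05, 8 synthetases were lower, namely 7 ATF4 targets and IARS2, and FARSA was higher, beside 8.83% and 11.4% of all genes. The smallest adjusted p was 0.137, for EPRS1 (log2 fold change -0.42 ± 0.11 SE) and NARS1 (-0.28 ± 0.08). Libraries separated downward for EPRS1, GARS1, IARS1, LARS1, NARS1, TARS1, HARS2 and IARS2, and upward for FARSA, QARS1 and CARS2. Among all genes 10.5% separated downward and 11% upward. DESeq2 called EPRS1, GARS1, IARS1 and NARS1 lower, with 5.35% of all genes called.

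Without control library c, 10 of the 12 genes fell with MRPL42 siRNA in edgeR's test, against 1.33% of all genes tested (0.792% lower), and the median over the 12 was -0.45. GARS1 fell by 0.59 ± 0.06 (SE, adjusted p = 0.00234), EPRS1 by 0.56 (adjusted p = 0.006), MARS1 by 0.54 (adjusted p = 0.00228) and TARS1 by 0.53 (adjusted p = 0.00437). YARS1, IARS1 and CARS1 fell by 0.47, 0.46 and 0.43, and NARS1, AARS1 and WARS1 by 0.35, 0.34 and 0.32. SARS1 (-0.35, adjusted p = 0.0533) and LARS1 (-0.27, adjusted p = 0.0706) did not pass. No synthetase outside the 12 passed in this fit, where FARSA and WARS2 were higher and IARS2 lower at an unadjusted p below 0.05, beside 11.1% of all genes higher and 8.53% lower. Every MRPL42 siRNA library lay below both remaining controls for all 12 genes and for 17.5% of all genes. DESeq2 without control library c again called all 12 and no other synthetase, with 3.79% of all genes called. Weighted limma called these 12 and IARS2 lower and FARSA higher, with 15% of all genes called. Leaving out MRPL42 siRNA library b as well as control library c, edgeR called 12 synthetases with UXS1 siRNA (9.47% of all genes) and 13 with MRPL42 siRNA (14.6%). Library b did not stand apart by correlation, which was 0.966 to 0.992 with the other libraries, so calls that need its removal are weakly based.

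**Figure D2:**
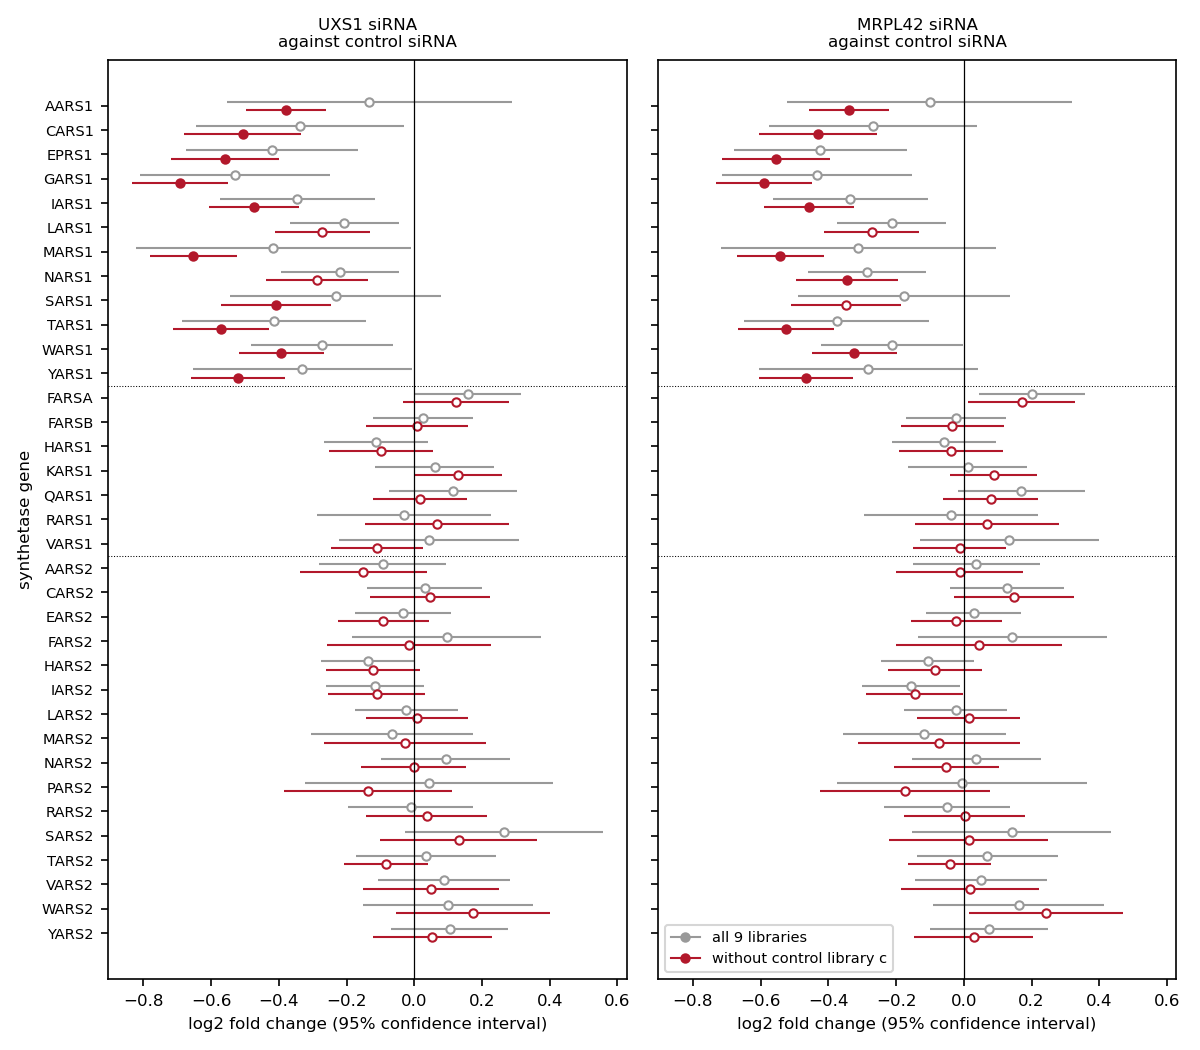
Points are log2 fold changes and bars 95% confidence intervals of each synthetase gene for UXS1 siRNA (left) and MRPL42 siRNA (right) against control siRNA, with all 9 libraries (grey) and without control library c (red); filled points have an adjusted p below 0.05. All filled points belong to the 12 ATF4-target genes above the first dotted line, and they lie between -0.69 and -0.32.

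Among the other 7 cytosolic genes no member passed in either contrast, with or without control library c, in edgeR's test. FARSA, the catalytic subunit of phenylalanyl-tRNA synthetase, was at 74.6, 67.9 and 67.8 CPM in the controls, at 76.2, 83.1 and 75.5 CPM with UXS1 siRNA and at 76.7, 82.2 and 82.8 CPM with MRPL42 siRNA. Each siRNA library of FARSA exceeded each control, by small steps. Its partner subunit FARSB was at 88.8, 89.8 and 88.6 CPM in the controls and between 82.4 and 95.1 CPM in the siRNA libraries, which lay on both sides of the controls. KARS1, for lysine in both compartments, was lowest in control libraries a and b (174 and 183 CPM) and highest in control library c (210.1 CPM), opposite to the order in GARS1, which also serves both compartments. RARS1, for arginine, had its lowest value in control library a (79.6 CPM) and its highest in control library c (110.4 CPM). VARS1, for valine, was at 140.4, 135 and 99.5 CPM in the controls and between 125 and 143 CPM with either siRNA. Control library c was thus the lowest for VARS1 too, every UXS1 siRNA library lay below control libraries a and b, and the MRPL42 siRNA libraries overlapped a and b. Without control library c its log2 fold changes were -0.11 (adjusted p = 0.365) and -0.01. HARS1 for histidine and QARS1 for glutamine had log2 fold changes between -0.11 and 0.17 in both contrasts.

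Some cytosolic synthetases are held with scaffold proteins in the multisynthetase complex. Its 7 members here did not share 1 direction. EPRS1, IARS1, LARS1 and MARS1 had log2 fold changes between -0.65 and -0.27 with UXS1 siRNA without control library c, whereas KARS1, QARS1 and RARS1 lay between 0.02 and 0.13. Of the 7, 3 fell in each contrast without control library c, as did 7 of the 12 cytosolic synthetases outside the complex, beside 1.58% of all genes called with UXS1 siRNA and 1.33% with MRPL42 siRNA. The scaffolds AIMP1, AIMP2 and EEF1E1 were not called in any contrast in edgeR's fits with or without control library c. EEF1E1 was at 25.4, 26.0 and 24.4 CPM in the controls and between 27.8 and 30.6 CPM in the siRNA libraries (log2 fold changes 0.23 and 0.23 with all libraries). These libraries did not overlap, but the adjusted p was 0.178 and 0.143. By catalytic fold, 5 of 9 cytosolic class I enzymes and 4 of 9 class II enzymes fell in each contrast in the same fits, against the same shares of all genes. EPRS1, which holds 1 activity of each class, was counted in neither and fell in both contrasts.

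The 16 mitochondrial synthetases showed no called difference in either contrast in edgeR's test with all libraries or without control library c alone, and at an unadjusted p below 0.05 the counts with all libraries were 0 with UXS1 siRNA and 1 with MRPL42 siRNA. SARS2, for serine, had the largest log2 fold change of this class, 0.27 ± 0.13 SE with UXS1 siRNA. It was at 22.6, 18.7 and 15.7 CPM in the controls, at 24.3, 22.7 and 21.6 CPM with UXS1 siRNA and at 22.2, 19.1 and 21.6 CPM with MRPL42 siRNA. The groups overlapped, and without control library c the difference was 0.13. IARS2, for isoleucine, was at 235, 248 and 251 CPM in the controls, at 225, 218 and 236 CPM with UXS1 siRNA and at 210.2, 233 and 216 CPM with MRPL42 siRNA, a log2 fold change of -0.16 ± 0.06 in the latter (adjusted p = 0.223). Without both MRPL42 siRNA library b and control library c, IARS2 fell by 0.19 with MRPL42 siRNA (edgeR, adjusted p = 0.0461). It is the mitochondrial gene among the 13 called there, and library b held its highest value of that group. HARS2, for histidine, was at 48.3, 47.6 and 50.8 CPM in the controls, at 45.9, 44.4 and 43.0 CPM with UXS1 siRNA and at 43.7, 46.3 and 46.2 CPM with MRPL42 siRNA. Every siRNA library lay below every control for HARS2 (log2 fold changes -0.14 and -0.11). WARS2, for tryptophan, was at 7.95, 7.93 and 9.44 CPM in the controls, at 9.74, 8.54 and 8.87 CPM with UXS1 siRNA and at 8.98, 9.89 and 9.45 CPM with MRPL42 siRNA. It was lowest in control libraries a and b, and control library c lay among the siRNA libraries.

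The remaining mitochondrial genes moved little. With all libraries AARS2, CARS2, EARS2, FARS2, LARS2, MARS2, NARS2, PARS2, RARS2, TARS2, VARS2 and YARS2 had log2 fold changes between -0.12 and 0.14 in both contrasts. FARS2, for phenylalanine, was at 10.1, 9.997 and 8.17 CPM in the controls, at 10.7, 8.94 and 10.7 CPM with UXS1 siRNA and at 10.7, 9.63 and 10.9 CPM with MRPL42 siRNA. NARS2, for asparagine, was at 35.1, 37.5 and 30.3 CPM in the controls, at 36.4, 36.7 and 36.6 CPM with UXS1 siRNA and at 33.7, 37.0 and 34.9 CPM with MRPL42 siRNA. YARS2, for tyrosine, was at 38.9, 39.0 and 35.8 CPM in the controls, at 37.9, 43.0 and 41.2 CPM with UXS1 siRNA and at 38.0, 38.7 and 42.8 CPM with MRPL42 siRNA. Control library c was the lowest of the 9 for each of these 3, and the groups overlapped. AARS2, for alanine, was at 22.2, 21.7 and 20.05 CPM in the controls, at 18.7, 19.8 and 21.6 CPM with UXS1 siRNA and at 22.2, 20.8 and 22.6 CPM with MRPL42 siRNA. CARS2, for cysteine, was at 24.8, 23.1 and 25.4 CPM in the controls, at 23.7, 26.2 and 25.1 CPM with UXS1 siRNA and at 26.3, 25.9 and 28.0 CPM with MRPL42 siRNA. MARS2, for methionine, was at 20.6, 18.5 and 21.7 CPM in the controls, at 21.5, 19.4 and 17.3 CPM with UXS1 siRNA and at 17.6, 20.4 and 18.1 CPM with MRPL42 siRNA. For AARS2 and MARS2 both siRNA groups overlapped the controls, and for CARS2 the MRPL42 siRNA libraries lay above all controls by small steps. Over all 16 mitochondrial genes control library c was the lowest of the 9 libraries for 7 (EARS2, FARS2, NARS2, PARS2, SARS2, TARS2 and YARS2) and the highest for 5 (HARS2, IARS2, LARS2, MARS2 and RARS2). No share of all genes stands beside these counts. Control library c stood apart over the whole table, so they are not read as a trait of the class. PARS2 was at 9.08 and 9.24 CPM in control libraries a and b, at 6.21 CPM in c and between 7.04 and 8.82 CPM with either siRNA. The difference between the classes, the cytosolic minus the mitochondrial median log2 fold change, was -0.25 in both contrasts with all libraries and -0.37 (UXS1 siRNA) and -0.34 (MRPL42 siRNA) without control library c. In single libraries, the cytosolic median relative to that of the mitochondrial genes was 0.231 and 0.283 in control libraries a and b, 0.00844 in c, and between -0.121 and -0.0383 in the siRNA libraries. Members of a class are not replicates, so these medians carry no test.

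**Figure D3:**
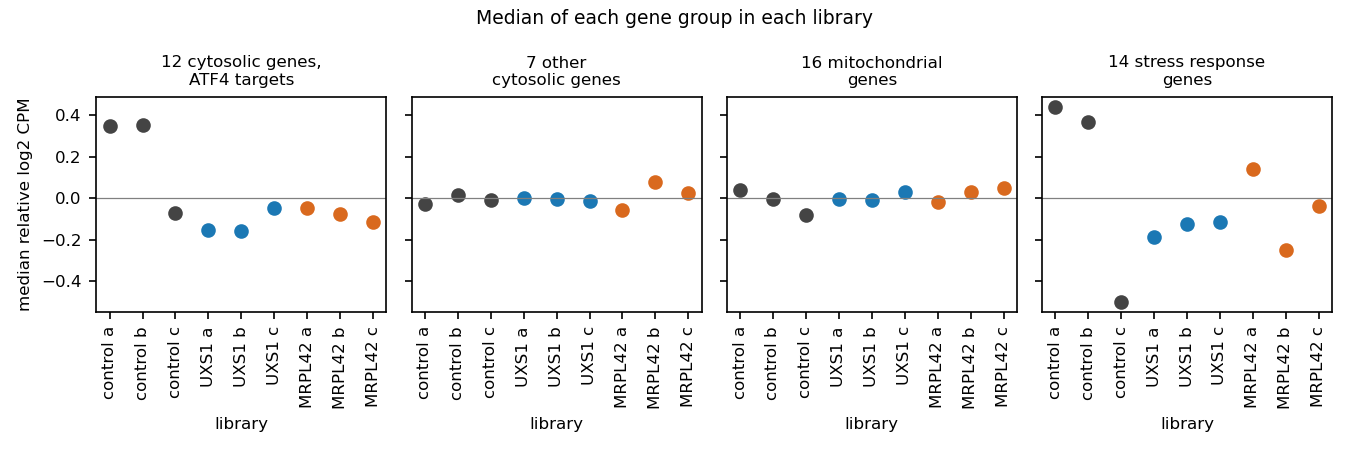
Each point is the median over the genes of a group of their log2 CPM relative to the mean of the 9 libraries, plotted by library for control (grey), UXS1 (blue) and MRPL42 (orange) siRNA. The ATF4-target panel puts control libraries a and b at about 0.35 and the other 7 libraries below 0, and the panel of stress response genes puts control library c lowest at -0.501.

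No synthetase differed between UXS1 siRNA and MRPL42 siRNA by edgeR's test, where 0% of all genes were called, and 0 of the 35 had an unadjusted p below 0.05, as 0.458% of all genes had downward and 1.26% upward. DESeq2 and weighted limma also called 0. The log2 fold changes of UXS1 siRNA over MRPL42 siRNA lay between -0.13 for AARS2 and 0.12 for SARS2, and the outermost 95% confidence bounds were -0.51 and 0.42. Without control library c these bounds were -0.31 and 0.33, so that differences smaller than this were not detectable for every gene. The libraries separated for MARS1 and EARS2, both lower with UXS1 siRNA, while 4.31% of all genes separated in that direction.

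Genes of the amino acid and stress response that ATF4 is known to control had values beside those of the synthetases. ASNS, asparagine synthetase, was at 243, 261 and 85.3 CPM in the controls, at 107, 107 and 119 CPM with UXS1 siRNA and at 130.5, 100.4 and 105 CPM with MRPL42 siRNA. As in AARS1 and MARS1, control library c lay below all siRNA libraries. The mRNA of ATF4 itself was at 332, 331 and 183 CPM in the controls, at 232, 259 and 254 CPM with UXS1 siRNA and at 296, 224 and 259 CPM with MRPL42 siRNA (adjusted p = 0.657 and 0.754). Over the 14 genes of this list, edgeR called STC2 lower with UXS1 siRNA with all 9 libraries (log2 fold change -0.83, adjusted p = 0.0304) and none with MRPL42 siRNA. At an unadjusted p below 0.05, 7 were lower with UXS1 siRNA and 6 with MRPL42 siRNA, beside 7.37% and 8.83% of all genes. Without control library c, 8 of 14 fell with UXS1 siRNA (1.58% of all genes called) and 6 of 14 with MRPL42 siRNA (1.33%). In both contrasts ASNS fell by 1.19 and 1.18, SESN2, a sensor of leucine, by 1.10 and 0.90, and PSAT1 of serine synthesis by 0.97 and 0.92. PHGDH, the first enzyme of serine synthesis, fell by 0.90 and 0.80, STC2, a secreted glycoprotein, by 0.77 and 0.65, and SLC7A5, a transporter of large neutral amino acids, by 0.43 and 0.33. CHAC1, which degrades glutathione, fell by 1.32 and TRIB3, a pseudokinase, by 0.53 with UXS1 siRNA. With MRPL42 siRNA they were at -0.97 (adjusted p = 0.0704) and -0.42 (adjusted p = 0.0829). SLC7A5, STC2 and SLC7A11, a cystine transporter, had their highest value of the 9 libraries in control library c. NUPR1, a stress-induced nuclear protein chosen after its values were seen, was at 93.2, 83.2 and 20.3 CPM in the controls, at 118, 119 and 104 CPM with UXS1 siRNA and at 172, 58.8 and 107 CPM with MRPL42 siRNA. Its UXS1 siRNA libraries lay above all controls, but the log2 fold change of 0.35 without control library c did not pass (adjusted p = 0.590). Without MRPL42 siRNA library b as well, NUPR1 rose by 0.65 with MRPL42 siRNA (edgeR, adjusted p = 0.0166), in a fit that called 14.6% of all genes. Library b held the lowest NUPR1 value of that group, so this call rests on its removal. ATF4 (-0.43, adjusted p = 0.0667, and -0.36, adjusted p = 0.103) and DDIT3, a stress-induced transcription factor (0.01 and 0.07), did not pass.

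The stress list and the synthetases did not run in parallel in every library. The stress genes' median relative log2 CPM was 0.44 and 0.367 in control libraries a and b and -0.501 in c. It was between -0.188 and -0.116 with UXS1 siRNA, and 0.14, -0.25 and -0.0383 with MRPL42 siRNA, whereas the ATF4-target synthetases of MRPL42 siRNA stayed between -0.114 and -0.0479. The stress genes thus had a wider range over the 3 MRPL42 siRNA libraries than the synthetases.

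Other genes of translation showed no called change in edgeR's fits with or without control library c. Over the 5 cytosolic elongation factors the median log2 fold change with all libraries was 0.20 with UXS1 siRNA and 0.24 with MRPL42 siRNA, and EEF1D, EEF1B2 and EEF1G were higher at an unadjusted p below 0.05 in both, beside 10.4% and 11.4% of all genes. These values are not adjusted for transcript length, which was 2292.5, 880 and 1523 bases in EEF1D, EEF1B2 and EEF1G. EEF1D, a subunit of the exchange factor, was at 419, 385 and 382 CPM in the controls, at 528, 575 and 472 CPM with UXS1 siRNA and at 686, 428 and 591 CPM with MRPL42 siRNA (adjusted p = 0.223 and 0.141). EEF1A1, which delivers charged tRNA to the ribosome, had log2 fold changes of -0.04 and -0.03. Over the 10 factors of mitochondrial tRNA charging and translation, among them the amidotransferase subunits GATB, GATC and QRSL1, the medians were 0.06 and 0.04. Of these, MTIF3 had the smallest p with UXS1 siRNA (log2 fold change 0.24, adjusted p = 0.211) and MTIF2 with MRPL42 siRNA (-0.22, adjusted p = 0.214). Over the 9 genes of proofreading and selenocysteine insertion, the medians were 0.19 and 0.12. AARSD1, an editing protein for alanyl-tRNA, had log2 fold changes of 0.21 and 0.29 (adjusted p = 0.306 and 0.178).

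Levels can be compared between genes only per length, so CPM was divided by the length in kilobases of each gene's transcript in GENCODE 29. Over the controls the median of this level was 54.8 CPM per kilobase for the cytosolic genes and 10.7 for the mitochondrial genes, a ratio of 5.14. In single libraries the ratio of the class medians lay between 3.84 and 5.70. AARS1 led with 165 ± 49.96 CPM per kilobase (SD, n = 3 controls), followed by GARS1 at 154 ± 29.1, MARS1 at 109 ± 31.7, NARS1 at 107 ± 8.38, IARS1 at 105 ± 15.5 and KARS1 at 94.2 ± 9.44. After a gap came TARS1 at 68.9 ± 12.6 CPM per kilobase, then EPRS1, YARS1, SARS1, CARS1, RARS1 and FARSA between 63.5 and 38.6. LARS1, WARS1, VARS1, QARS1, FARSB and HARS1 were the lowest of the class, between 35.1 and 26.2 CPM per kilobase. In this order neighbours overlapped over the control libraries except KARS1 with TARS1 and, by a small margin, FARSA with LARS1.

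IARS2 at 68.8 ± 2.35 CPM per kilobase and TARS2 at 39.6 ± 5.23 stood above all other mitochondrial synthetases and within the cytosolic range. HARS2 at 19.8 and YARS2 at 17.8 CPM per kilobase came next, and RARS2, NARS2, CARS2 and EARS2 lay between 16.4 and 12.1. SARS2 for serine, LARS2 for leucine and MARS2 for methionine lay between 9.24 and 6.72 CPM per kilobase, and FARS2, AARS2 and VARS2 between 5.62 and 4.79. The lowest were PARS2 for proline at 3.48 ± 0.727 and WARS2 at 3.01 ± 0.310 CPM per kilobase, which overlapped. IARS2, TARS2, HARS2, RARS2, EARS2, LARS2, MARS2 and VARS2 each stood above the next gene in every control library, and the other neighbours overlapped. MARS1 and HARS1 were the only members with decimal estimated counts, in 7 and 8 libraries, so their levels depend on how the counting program divided reads.

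**Figure D4:**
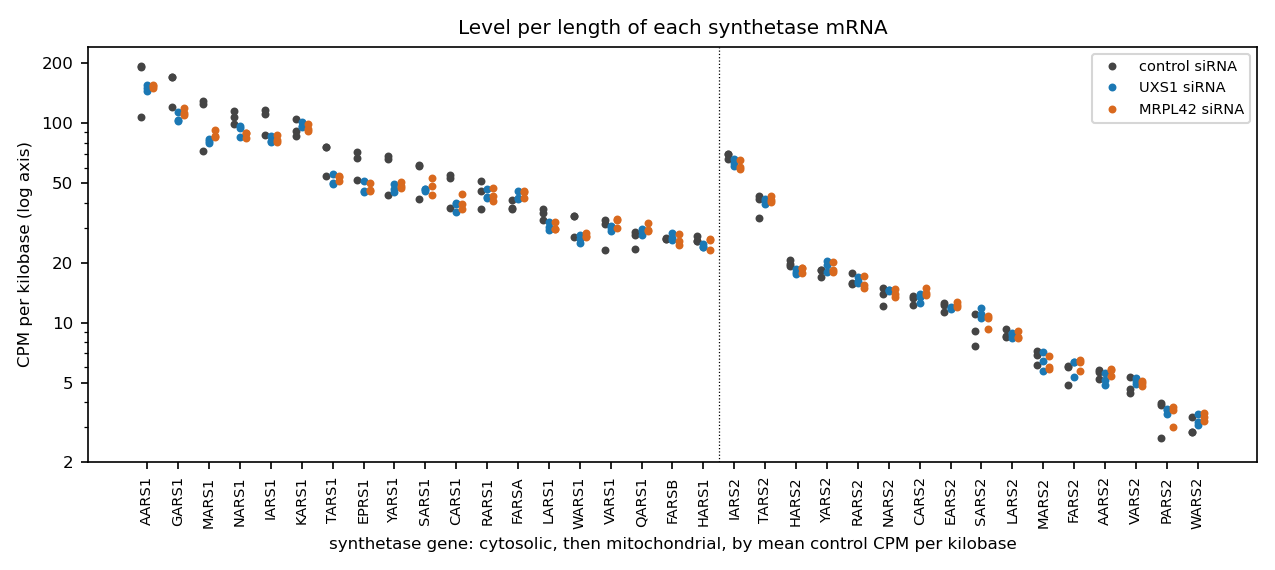
CPM per kilobase of transcript on a log axis for each synthetase gene, cytosolic genes to the left of the dotted line and mitochondrial genes to the right, in order of the control mean; each point is a library of control (grey), UXS1 (blue) or MRPL42 (orange) siRNA. The cytosolic genes lie above 20 CPM per kilobase in every library, and of the mitochondrial genes IARS2 and TARS2 stand apart at 68.8 and 39.6 in the control mean.

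Several measures moved with control library c beside the synthetases. The median of the hepatocyte markers relative to the 9-library mean was -1.02 (log2 CPM) in c and between -0.00196 and 0.249 in the other 8 libraries. HNF4A went the other way, at 111 CPM in c against 52.8 to 57.8 CPM elsewhere. Of 14 markers of other cell types 6 passed the filter, and their median was -0.847 in c and between -0.0948 and 0.139 in the others. The members went both ways in c. The fibroblast genes LUM and DCN were at 277 and 25.0 CPM in c, against 35.4 to 44.0 and 17.7 to 20.5 CPM elsewhere. The endothelial genes KDR and PECAM1 were at 3.98 and 19.3 CPM in c, against 25.0 to 36.9 and 30.5 to 38.6 CPM elsewhere, and LYZ of myeloid cells was at 1.22 CPM against 4.22 to 7.79. CDH5, of endothelial cells, was at 0 in every library. With LUM the largest of them, the summed CPM of the 14 was 328 in c and 121 to 140 in the others. The median of 5 nuclear-retained and histone RNAs was 0.953 in c and between -0.353 and 0.0638 elsewhere. Their summed CPM went the other way, at 140 in c and 156 to 190 elsewhere. The part of these in the synthetase values was not tested. The slope of log2 CPM on transcript length was 0.05 to 0.13 per doubling of length in the controls and -0.10 to 0.04 in the siRNA libraries. Median transcript length was 3168.5 bases for the 12 ATF4-target genes, 2192.5 for the other 7 cytosolic genes and 2624 for the mitochondrial genes. With offsets per library for length and without control library c, edgeR called 10 synthetases lower with UXS1 siRNA (2.49% of all genes called in either direction) and 11 with MRPL42 siRNA (2.29%), and the median over the ATF4-target genes was -0.47 and -0.41. In RNA of whole cultures, fewer cells of a kind and less RNA per cell cannot be told apart.

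Another protein-coding gene overlapped 12 of the 35 synthetase genes in the GENCODE 29 annotation of GRCh38, on the opposite strand in 11. MARS1 (chr12:57475445-57517569, plus strand) shares 13370 bases with ARHGAP9 and 982 bases with DDIT3, and HARS1 (chr5:140673904-140691862, minus strand) shares 437 bases with HARS2 and 221 with WDR55. The sources used here do not say whether counting used strand, and reads in these stretches cannot be assigned with certainty. DDIT3 stood at 80.7, 78.8 and 58.3 CPM in the controls and between 69.9 and 97.2 CPM in the siRNA libraries, and so did not share the profile of MARS1. Both had decimal estimated counts, 7316.54 for MARS1 and 1564.46 for DDIT3 in control library a. Their estimates may therefore not be independent, and the differing profiles are no test of shared reads. GARS1 (chr7:30594681-30634033, plus strand) and AARS1 (chr16:70252295-70289543, minus strand) overlap no other protein-coding gene.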

How the data were processed

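The authors deposited a table with estimated counts per gene for 9 libraries. Its 9 further columns of per-sample values were not used here, although TPM had been foreseen for levels between genes. The submitters' processing notes name hg38 and the tools HISAT2, Bowtie2, fastp and edgeR, without roles. Of the estimated counts above 0, 83.6% to 84.9% per library were whole; all were rounded for a design written for raw counts. The members and lists were chosen with earlier results of these data known. After filterByExpr and TMM scaling, edgeR 4.0.16 (R 4.3.3) was run with 1 mean per group over all 9 libraries. Benjamini-Hochberg adjustment of its two-sided quasi-likelihood p-values covered 12657 genes (12747 without control library c), with a threshold of 0.05. CPM uses TMM-adjusted totals, and CPM per kilobase divides it by the median length of a gene's principal GENCODE 29 transcripts. Alternatives used DESeq2 1.42.0, limma 3.58.1 with library weights, and offsets for transcript length (lowess, span 0.3). The common biological coefficient of variation was 0.130, and 0.0753 without control library c. Reads amplified by PCR and lacking molecular identifiers are not independent molecules. Chi-square per gene between libraries was at least 3.34, so none were duplicates within counting noise.

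On simulated counts with all 9 libraries, edgeR recovered 35.8% of genes changed 1.5-fold and 83.6% of those changed 2-fold for UXS1 siRNA against control (12561 genes), and 41.8% and 76.1% for MRPL42 siRNA (12582 genes). False calls numbered 13 and 6. No simulated library stood apart as control library c does, so these shares need not hold for the real libraries.

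Named with full values are the siRNA targets, synthetases past the threshold in the fit with all libraries or without the library that stands apart, and those with the largest fold changes, up to 10 per class. From each list come the members past the threshold (at most 6 by size of change, with TRIB3 and SLC7A5 added for completeness), or else the 2 with the smallest p, and always ATF4, DDIT3 and ASNS. Other synthetases named with values were chosen after their values were seen. Promoter sequences are from RefSeq (GRCh38.p14).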

Additional observations from a re-analysis of the deposited data

How the results depend on the processing

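The count of synthetases called against control siRNA rested on control library c. Leaving out 1 library at a time, it was 0 to 10 for UXS1 siRNA and 0 to 10 for MRPL42 siRNA, with the 10 reached only without control library c. There 1.58% and 1.33% of all genes were called. Without both MRPL42 siRNA library b and control library c it was 12 and 13, beside 9.47% and 14.6% of all genes. Transcript length offsets without control library c gave 10 and 11 (2.49% and 2.29% of all genes), and DESeq2 gave 4 and 4 (3.63% and 5.35%). DESeq2 without control library c gave 12 and 12 (3.09% and 3.79%), and limma with library weights 12 and 14 (10.4% and 15%). The offsets and DESeq2 without control library c were added after the data were seen. RLE factors, no filter, the 2 groups alone and length offsets with all libraries gave 0. A replicate block by column letter also gave 0. Same-letter libraries deviated with correlations of -0.27 to 0.13, so the letters do not pair them.

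The cytosolic minus mitochondrial median was -0.37 to -0.17 for UXS1 siRNA with 1 library left out. It was -0.37 without both MRPL42 siRNA library b and control library c, -0.37 in DESeq2 without control library c and -0.38 in weighted limma. Between the siRNAs it was -0.06 in the main fit and -0.066 to 0.00058 with 1 library left out, so its direction is not settled.

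Of 798 alternative values for 21 named synthetases, 655 kept direction and side of the threshold, 117 passed it and 26 changed sign, all near 0. With 1 library left out, the log2 fold change with UXS1 siRNA was -0.38 to 0.0035 for AARS1, -0.016 to 0.17 for FARS2, -0.017 to 0.069 for CARS2, -0.14 to 0.0085 for MARS2 and -0.0018 to 0.16 for NARS2. With MRPL42 siRNA it was -0.34 to 0.036 for AARS1, -0.012 to 0.072 for AARS2 and -0.052 to 0.11 for NARS2. Length offsets gave -0.00033 for FARS2 and -0.038 for CARS2 with UXS1 siRNA. Combined with leaving out control library c they gave -0.077 for FARS2 and 0.0013 for MARS2 with UXS1 siRNA, and -0.013 for SARS2, -0.029 for FARS2 and -0.047 for NARS2 with MRPL42 siRNA. DESeq2 without control library c gave -0.0038 for FARS2 with UXS1 siRNA, and -0.0016 for AARS2 and -0.042 for NARS2 with MRPL42 siRNA. Weighted limma gave 0.026 for MARS2 with UXS1 siRNA and -0.057 for NARS2 with MRPL42 siRNA. Without both MRPL42 siRNA library b and control library c, FARS2 was at -0.017 and NARS2 at -0.0015 with UXS1 siRNA, and NARS2 at -0.089 with MRPL42 siRNA. Apart from control library c, the cause of these shifts was not tested.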
